A study of Mus musculus with 12 samples.

Results

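The replication-dependent histone genes were followed in 12 mammary tumors from PyMT mice as all genes whose symbol begins with Hist1h, Hist2h, Hist3h or Hist4h, which took 68 of the 21960 genes listed. By protein class they were 6 H1, 19 H2A, 18 H2B, 12 H3 and 13 H4 genes, of which 1, Hist1h2al, is annotated as a processed pseudogene and was kept in the H2A sums. By genomic cluster 55 were Hist1 genes, 10 were Hist2 genes, 2 were Hist3 genes and 1 was a Hist4 gene. The genes were singled out because an earlier look at the same tumors had found histone transcripts low in DOX/IgG1 relative to IgG1 tumors. For that pair of groups the values below are therefore a description: a count of genes past a limit is printed beside the share of all genes, and nothing is read from it. The choice also favours higher values in DOX/anti-PD-1 than in DOX/IgG1 and lower values in anti-PD-1 than in IgG1, because those comparisons reuse the same tumors, and it enters the interaction. Directions there are likewise a description, and only DOX/anti-PD-1 versus anti-PD-1 uses neither of those groups.

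The study asked how the chemotherapy doxorubicin (DOX) and an antibody that blocks the immune checkpoint receptor PD-1, alone and together, alter established mammary tumors. Tumors were from female C57BL/6 mice carrying the polyoma middle T transgene under the MMTV promoter, which limits the model to tumors driven by a single viral oncogene in mammary epithelium. There were 4 groups of 3 tumors: control IgG1, DOX/IgG1, anti-PD-1, and the combination DOX/anti-PD-1. Antibody alone began at a tumor diameter of 0.6 cm, with 20 mg/kg intraperitoneal followed by doses of 10 mg/kg. In the DOX groups treatment began at 1 cm, with weekly 5 mg/kg DOX and, a day later, 10 mg/kg of the antibody or of IgG1. The labels give 5 weeks of treatment for all groups, whereas the protocol of antibody alone ends with a dose in the third week. Per the methods of the study, mice were followed for up to 5 weeks from the first treatment. Whether the labels refer to that time is not clear from the sources used here. The DOX groups thus differed from the others in DOX, starting diameter, first antibody dose, schedule and possibly length of treatment, and these cannot be told apart. Ages were not given in the sources used here. Single-end reads of 75 bases came from a stranded kit for total RNA, and each tumor has 1 table of log2(TPM + 1), where TPM is abundance scaled for transcript length and library total. The unit is taken from the methods of the study, since the values alone cannot tell TPM from FPKM. Listed TPM summed to 609418 to 725506 per tumor, and sequencing depth is unknown. Values of 3 tumors are given in the order of their numbers 1, 2 and 3, which name the tumors and do not pair them between groups.

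Core histones H2A, H2B, H3 and H4 form the protein spool around which DNA is wound, and H1 is the linker histone that binds where DNA enters and leaves it. The replication-dependent copies of these genes are transcribed mainly in S phase, when new DNA has to be packaged, and their mRNA is degraded when DNA synthesis stops. Most lack introns, and their mRNA ends in a stem-loop bound by the stem-loop binding protein Slbp rather than in a poly(A) tail. Replacement histones such as H3.3 are made throughout the cell cycle from polyadenylated mRNA.

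The stem-loop was searched for in the annotated gene models on GRCm38 as a stem of 6 base pairs closed by a loop of 4 bases, and 46 of the 68 genes carried it. In 20 of the 46 the model stopped within 50 bases after the stem-loop, in 26 it ran on past it, and 22 models held no such stem-loop. The 26-base stretch around it is shown for 5 members, 1 of each class, and for the single Hist4 gene because this is the sequence that sets these transcripts apart from other mRNA. Capitals mark the stem and the loop.
H1 gene Hist1h1e, chr13:23621777-23621802 on the minus strand: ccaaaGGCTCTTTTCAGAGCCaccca
H2A gene Hist2h2aa1, chr3:96246027-96246052 on the plus strand: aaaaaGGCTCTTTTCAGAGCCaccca
H2B gene Hist1h2bk, chr13:22036295-22036320 on the plus strand: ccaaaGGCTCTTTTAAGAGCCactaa
H3 gene Hist1h3a, chr13:23761885-23761910 on the minus strand: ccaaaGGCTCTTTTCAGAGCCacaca
H4 gene Hist1h4d, chr13:23581945-23581970 on the plus strand: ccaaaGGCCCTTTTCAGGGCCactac
H4 gene Hist4h4, chr6:136803993-136804018 on the minus strand: acaaaGGCCCTTTTCAGGGCCcacaa

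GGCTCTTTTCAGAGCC was the form in 26 of the 46 genes, namely 3 H1, 10 H2A, 8 H2B and 5 H3 genes. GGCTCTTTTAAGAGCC was found in 6 genes of the H1, H2B and H3 classes. H4 genes carried other stems: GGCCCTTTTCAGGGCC in 7, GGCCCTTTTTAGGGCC in 2, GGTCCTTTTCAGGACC in 2 and GGCCCTTCTCAGGGCC in 1. The remaining forms were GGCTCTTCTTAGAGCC in 1 H3 gene and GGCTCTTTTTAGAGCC in 1 H2A gene.

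Many genes of a class share stretches of the same sequence, which limits what short reads can assign to a single copy. Across the gene models, 1 window of 75 bases, the length of a read, was shared by 13 of the 19 H2A genes. For H2B the most shared window was held by 13 of 18 genes, for H3 by 12 of 12, for H4 by 10 of 13 and for H1 by 3 of 6. The H2A window lies in the coding sequence of single-exon genes and is shown for Hist1h2af and the 2 Hist2h2aa genes, which held the shared form, as did Hist1h2ac, Hist1h2ag, Hist1h2ah, Hist1h2an and Hist1h2ap. It is also shown for Hist1h2ak and Hist3h2a, with capitals at bases that differ from the shared form.
Hist1h2af, chr13:23534115-23534189 on the plus strand, differing bases 0: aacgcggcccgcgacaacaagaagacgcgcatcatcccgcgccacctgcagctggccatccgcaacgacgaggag
Hist2h2aa1, chr3:96245785-96245859 on the plus strand, differing bases 0: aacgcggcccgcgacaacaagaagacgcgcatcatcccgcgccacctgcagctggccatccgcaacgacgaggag
Hist2h2aa2, chr3:96239972-96240046 on the minus strand, differing bases 0: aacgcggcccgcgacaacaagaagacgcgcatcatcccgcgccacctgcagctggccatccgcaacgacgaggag
Hist1h2ak, chr13:21753549-21753623 on the minus strand, differing bases 1: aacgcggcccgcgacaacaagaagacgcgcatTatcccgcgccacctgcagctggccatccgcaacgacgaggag
Hist3h2a, chr11:58954942-58955016 on the plus strand, differing bases 4: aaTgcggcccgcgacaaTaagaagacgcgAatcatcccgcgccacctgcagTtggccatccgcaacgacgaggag

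Hist1h2af and the 2 Hist2h2aa genes were identical over this window, although they lie on chromosomes 13 and 3. Over all members, a median of 57.8% of a gene's windows occurred in no other gene. In 6 members, among them the H1 genes Hist1h1a, Hist1h1b and Hist1h1t, every window was their own. For 28 members the share was under 50%, and Hist2h2aa2 and Hist2h3c1 had no window of their own. Values of single copies are therefore uncertain, and TPM was also summed within each class. The most shared H2A and H3 windows also occurred in genes outside the naming rule, so the sums of these classes are not free of shared reads either. The same holds for H2B and H4. Hist2h2bb and Hist4h4 shared no window with another member, yet only 50.2% and 94.8% of their windows occurred in no other gene.

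Promoters of 300 bases, 250 before to 50 after the start, were matched in RefSeq (GRCm38.p6) for 61 members and searched on both strands for 3 short motifs. ATTTGCAT, the octamer known from H2B promoters, was in 7 of 18 H2A promoters, 6 of 16 H2B promoters and no H1, H3 or H4 promoter, which made 13 of 61 (21.3%) against 1.74% of 32851 promoters of all genes. CCAAT was in 52 of 61 (85.2%) against 37.4%, and 3 of 12 H4 promoters held it. TATAAA was in 34 of 61 (55.7%) against 13.6%. Promoters of H2A and H2B genes that lie head to head overlap, so the same match can count for both genes. The counts are therefore not of separate stretches. A match is a description, not a site or a cause. The promoter of Hist2h2bb, the H2B gene with the highest mean TPM, is shown with the octamer in capitals.
Hist2h2bb promoter, chr3:96269450-96269749 on the plus strand: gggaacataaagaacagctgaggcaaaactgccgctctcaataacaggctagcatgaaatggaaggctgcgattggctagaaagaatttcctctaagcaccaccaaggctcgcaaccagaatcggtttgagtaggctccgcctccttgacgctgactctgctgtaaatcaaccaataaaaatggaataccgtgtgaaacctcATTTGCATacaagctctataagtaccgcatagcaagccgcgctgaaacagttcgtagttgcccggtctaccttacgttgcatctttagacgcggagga

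The Hist1 genes lie on chromosome 13, where 54 of them span chr13:21715763-23934851 (GRCm38), and the Hist2 genes lie within chr3:96219865-96270132. The pseudogene Hist1h2al lies apart at chr13:51202727-51203065, minus strand, and had 15.7, 11 and 0 TPM in the IgG1 tumors, 0, 51.2 and 24.8 TPM in the anti-PD-1 tumors, 49.3, 11.6 and 0 TPM in the DOX/IgG1 tumors and 0, 43 and 0 TPM in the DOX/anti-PD-1 tumors. The Hist3 genes lie within chr11:58948920-58956830, and Hist4h4 lies at chr6:136801553-136804415. Members sat head to head within 1000 bases of each other in 13 pairs, of which 12 joined an H2A gene with an H2B gene. Hist1h2ae and Hist1h2bg were 176 bases apart, and Hist2h2ac and Hist2h2be were 239 bases apart. Hist1h2bh and Hist1h3f, an H2B with an H3 gene, were 660 bases apart.

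Summed over all 68 genes, histone transcripts amounted to 4058, 2864 and 2010.5 TPM in the IgG1 tumors, 2738, 3824 and 3815 TPM in the anti-PD-1 tumors, 2453, 950.3 and 1217 TPM in the DOX/IgG1 tumors and 4085, 3238 and 1046 TPM in the DOX/anti-PD-1 tumors. The highest sum was 4.30 times the lowest. DOX/anti-PD-1 tumor 1 and IgG1 tumor 1 had the highest sums, and the 4 lowest were those of DOX/IgG1 tumors 2 and 3, DOX/anti-PD-1 tumor 3 and IgG1 tumor 3. Of all listed TPM the histone genes made up 0.666, 0.415 and 0.284% in the IgG1 tumors and 0.420, 0.584 and 0.562% in the anti-PD-1 tumors. In the DOX/IgG1 tumors they made up 0.351, 0.135 and 0.177%, and in the DOX/anti-PD-1 tumors 0.618, 0.446 and 0.163%. The group means were 2978 ± 1028 TPM for IgG1, 3459 ± 624 TPM for anti-PD-1, 1540.2 ± 802 TPM for DOX/IgG1 and 2789 ± 1568 TPM for DOX/anti-PD-1 (SD, n = 3). Whether a low sum reflects fewer cells in S phase or less histone RNA per cell cannot be told apart in whole tumors.

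H2A genes, whose product pairs with H2B in the core particle, gave the largest share, on average 43.5% of the histone sum. H2A transcripts summed to 2041, 1174 and 838 TPM in the IgG1 tumors, 1322, 2068 and 1906 TPM in the anti-PD-1 tumors, 896, 412 and 481 TPM in the DOX/IgG1 tumors and 1731, 1468 and 303 TPM in the DOX/anti-PD-1 tumors. All anti-PD-1 tumors exceeded all DOX/IgG1 tumors, while the lowest H2A sum of all was in DOX/anti-PD-1 tumor 3. H2B genes gave 26.0% and summed to 868, 779 and 571 TPM in the IgG1 tumors, 633, 775 and 848 TPM in the anti-PD-1 tumors, 767, 260.2 and 333 TPM in the DOX/IgG1 tumors and 1065, 865 and 323 TPM in the DOX/anti-PD-1 tumors. H2B in DOX/IgG1 tumor 1 lay within the range of the IgG1 tumors, unlike in the other DOX/IgG1 tumors.

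The linker histone H1 genes gave 12.1% of the sum, with 424, 439 and 230.4 TPM in the IgG1 tumors, 321, 353 and 366 TPM in the anti-PD-1 tumors, 333, 111 and 176 TPM in the DOX/IgG1 tumors and 495, 305 and 165 TPM in the DOX/anti-PD-1 tumors. H4 genes gave 10.8%, with 478, 256 and 203 TPM in the IgG1 tumors, 279, 300.4 and 425 TPM in the anti-PD-1 tumors, 300.4, 109 and 108 TPM in the DOX/IgG1 tumors and 399.8, 331 and 175 TPM in the DOX/anti-PD-1 tumors. In both classes DOX/IgG1 overlapped with IgG1 through its tumor 1 alone. H3 genes, whose tails carry many of the known chromatin marks, gave 7.68%, with 248, 216 and 169 TPM in the IgG1 tumors, 184, 328 and 269.5 TPM in the anti-PD-1 tumors, 157, 57.7 and 119 TPM in the DOX/IgG1 tumors and 395, 268 and 79.7 TPM in the DOX/anti-PD-1 tumors. For H3 every DOX/IgG1 tumor was below every IgG1 tumor, and the DOX/anti-PD-1 tumors spanned the range from below the IgG1 tumors to the highest value of all.

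**Figure D1:**
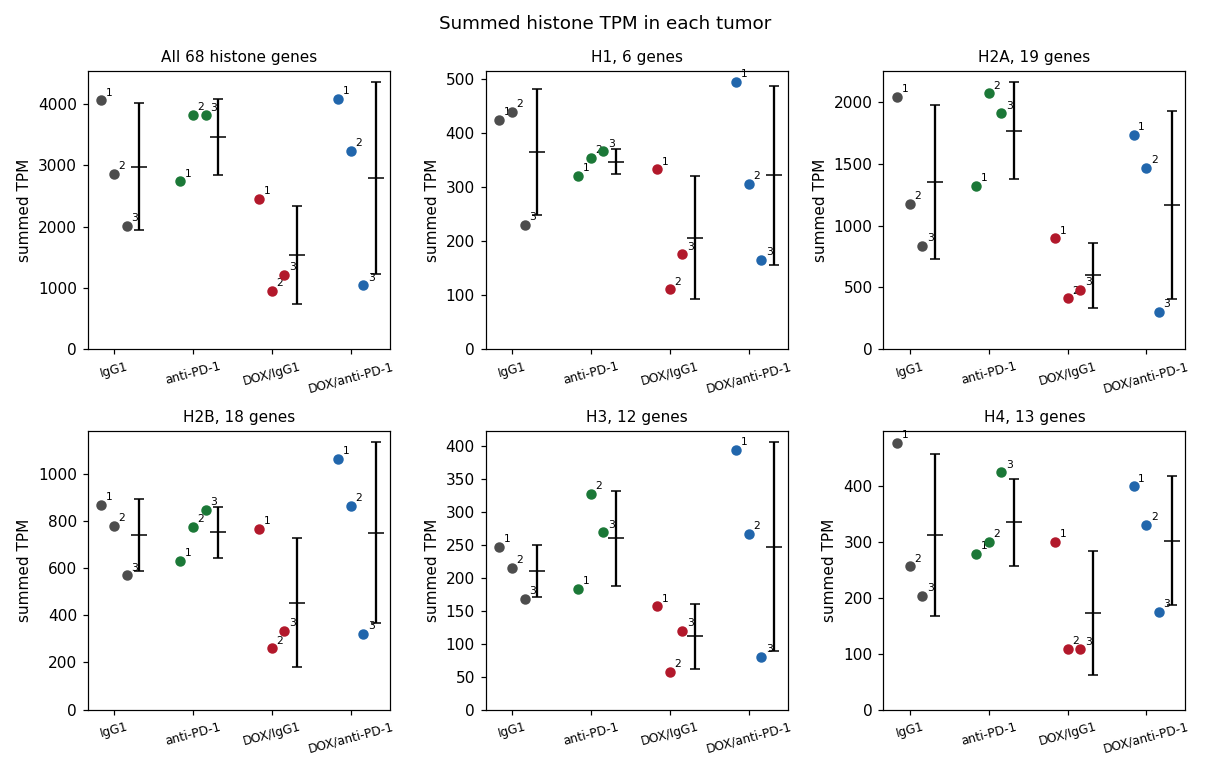
Summed TPM of the histone genes per tumor (y axis, TPM) in the 4 treatment groups (x axis), for all 68 genes and for the H1, H2A, H2B, H3 and H4 classes. Points are tumors with their number, bars are mean ± SD of 3 tumors; the sum over all genes ran from 950.3 TPM in DOX/IgG1 tumor 2 to 4085 TPM in DOX/anti-PD-1 tumor 1.

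By cluster, Hist1 genes gave 64.9% of the histone sum on average, Hist2 genes 33.6% and Hist3 genes 1.49%. The Hist1 genes summed to 2539.7, 1928 and 1287 TPM in the IgG1 tumors, 1795, 2347 and 2417 TPM in the anti-PD-1 tumors, 1704, 557 and 783 TPM in the DOX/IgG1 tumors and 2646, 2234 and 709.8 TPM in the DOX/anti-PD-1 tumors. The Hist2 genes summed to 1479.8, 883 and 691 TPM in the IgG1 tumors, 898, 1439 and 1345 TPM in the anti-PD-1 tumors, 724, 373 and 408 TPM in the DOX/IgG1 tumors and 1399, 958 and 309 TPM in the DOX/anti-PD-1 tumors. In both clusters DOX/anti-PD-1 tumor 3 and DOX/IgG1 tumors 2 and 3 had the 3 lowest sums. The 2 Hist3 genes summed to 38.1, 51.8 and 30.5 TPM in the IgG1 tumors, 44.1, 36.5 and 49.8 TPM in the anti-PD-1 tumors, 24.1, 19 and 24.4 TPM in the DOX/IgG1 tumors and 37.2, 45.5 and 26 TPM in the DOX/anti-PD-1 tumors, and every DOX/IgG1 tumor was below all IgG1, anti-PD-1 and DOX/anti-PD-1 tumors.

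Among single genes, shares per tumor averaged 11.3% of the histone sum for Hist2h2aa2, 10.5% for Hist2h2aa1, 6.37% for Hist2h2bb, 6.13% for Hist1h2bc and 4.95% for Hist1h2ap. By mean TPM over the tumors Hist2h2aa1 was ahead of Hist2h2aa2, and Hist1h2ap ahead of Hist1h2bc. Of the 68 genes 24 were above 0 in every tumor, 43 were listed at 0 in 1 to 11 tumors, and Hist1h2aa, an H2A gene known from testis, was listed at 0 in all 12. At least 1 TPM in 3 or more tumors was found for 63 genes. The number listed at 0 was 7, 15 and 19 in the IgG1 tumors, 17, 6 and 9 in the anti-PD-1 tumors, 24, 23 and 24 in the DOX/IgG1 tumors and 21, 10 and 32 in the DOX/anti-PD-1 tumors.

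Such a 0 can be a failed estimate, because 2 of 72 cytosolic ribosomal protein genes, which every cell uses, were also listed at 0 in some tumors. Rps12, a protein of the small subunit, was at 104, 12.6 and 0 TPM in the IgG1 tumors, 18.5, 50.6 and 13.4 TPM in the anti-PD-1 tumors, 55.3, 0 and 0 TPM in the DOX/IgG1 tumors and 74.2, 40.1 and 0 TPM in the DOX/anti-PD-1 tumors. Its 4 tumors at 0 were those with the 4 lowest histone sums, which was seen after the values were known, and the part of such estimates in the histone values was not tested. Rpl24, of the large subunit, was listed at 0 in DOX/anti-PD-1 tumor 1, which had the highest histone sum. Among the 46 histone genes with a mean of at least 10 TPM, those with under 50% of windows of their own were listed at 0 in 57 of 252 values (22.6%). Those with at least 50% were listed at 0 in 36 of 300 values (12%).

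**Figure D2:**
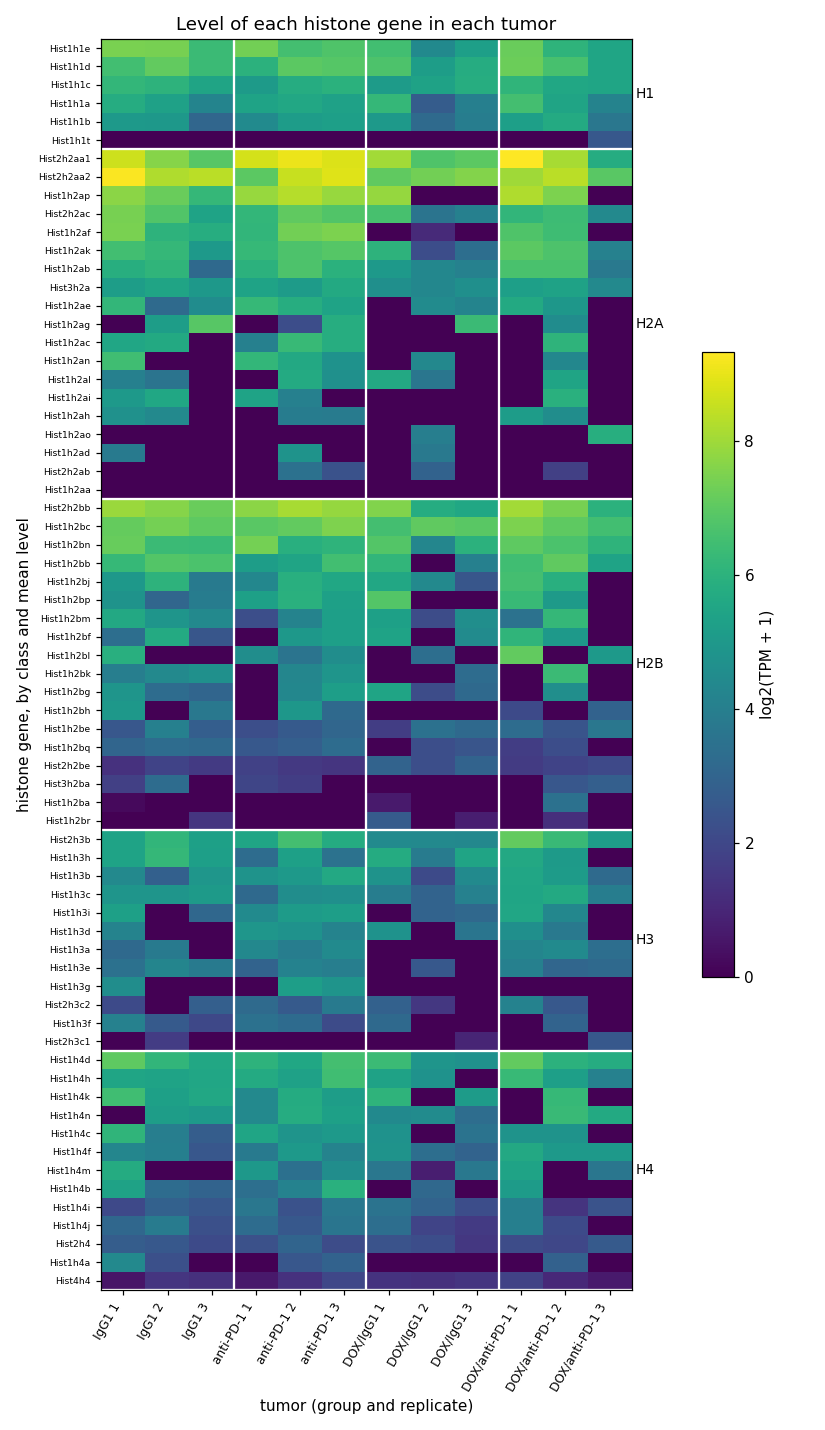
Level of each of the 68 histone genes (rows, ordered by class and mean) in each of the 12 tumors (columns, by group), as log2(TPM + 1). Hist2h2aa1, with a mean of 300.8 TPM, leads the H2A genes, and Hist1h2aa is at 0 in all 12 tumors.

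**Figure D3:**
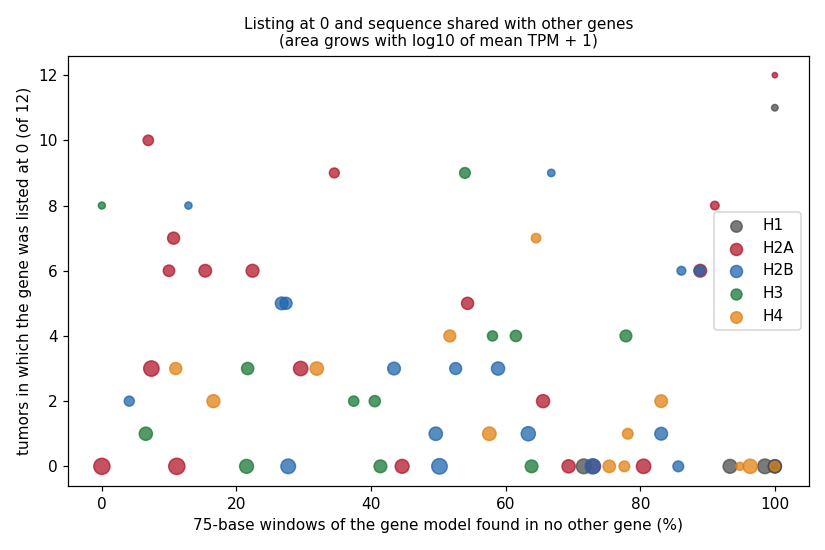
Number of tumors in which a histone gene was listed at 0 (y axis) against the percent of its 75-base windows found in no other gene (x axis); each point is 1 gene, its area grows with its mean TPM and its color gives the class. Genes listed at 0 in several tumors occur on both sides of 50%.

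In the DOX/IgG1 versus IgG1 pair, which asks what the chemotherapy schedule changed without checkpoint blockade, the summed histone TPM was lower in DOX/IgG1, with a log2 ratio of −1.01 (SE 0.50) (n = 3 and 3). The ratio was −1.17 (SE 0.51) for H2A, −1.02 (SE 0.46) for H3, −0.94 (SE 0.61) for H4, −0.91 (SE 0.55) for H1 and −0.85 (SE 0.51) for H2B. Groups did not overlap for H3 and overlapped for the other classes. The size of the log2 ratio of the sum varied with single tumors: it was −1.41 without DOX/IgG1 tumor 1 and −0.73 without DOX/IgG1 tumor 2. With 1 tumor left out the class ratios ran from −1.50 to −0.82 for H2A, −1.33 to −0.61 for H3, −1.43 to −0.58 for H4, −1.33 to −0.53 for H1 and −1.31 to −0.53 for H2B, each furthest from 0 without DOX/IgG1 tumor 1.

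Hist1h2af, an H2A gene at chr13:23533906-23534304, plus strand, had 177, 65 and 56.1 TPM in the IgG1 tumors, 70.4, 162 and 179 TPM in the anti-PD-1 tumors, 0, 1.16 and 0 TPM in the DOX/IgG1 tumors and 107, 85.4 and 0 TPM in the DOX/anti-PD-1 tumors. It was at or near 0 in all DOX/IgG1 tumors and in DOX/anti-PD-1 tumor 3, and higher in every other tumor. Its log2 fold change on the log2(TPM + 1) scale was −6.08 (SE 0.53) in DOX/IgG1 versus IgG1. Hist2h2aa2, an H2A gene at chr3:96239749-96240276, minus strand, had 617, 298 and 333 TPM in the IgG1 tumors, 127, 376 and 471 TPM in the anti-PD-1 tumors, 134, 164 and 193 TPM in the DOX/IgG1 tumors and 258, 332 and 124 TPM in the DOX/anti-PD-1 tumors, and its DOX/IgG1 tumors were below its IgG1 tumors. Hist2h2aa1, its neighbour at chr3:96245497-96246082, plus strand, had 395, 197 and 121 TPM in the IgG1 tumors, 430.4, 538 and 454 TPM in the anti-PD-1 tumors, 263, 107 and 124 TPM in the DOX/IgG1 tumors and 647, 277 and 54.5 TPM in the DOX/anti-PD-1 tumors. Here the DOX/IgG1 and IgG1 tumors overlapped, and the anti-PD-1 tumors were all above both.

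Hist1h2ap, another H2A gene, at chr13:21833026-21833507, minus strand, had 209, 145 and 73.8 TPM in the IgG1 tumors, 239, 313 and 239.8 TPM in the anti-PD-1 tumors, 232, 0 and 0 TPM in the DOX/IgG1 tumors and 299, 179 and 0 TPM in the DOX/anti-PD-1 tumors. It was listed at 0 in 2 DOX/IgG1 tumors and 1 DOX/anti-PD-1 tumor and was well above 0 in the rest. Hist1h1e, a linker histone gene at chr13:23620629-23622558, minus strand, had 175, 171 and 80.9 TPM in the IgG1 tumors, 163, 92.5 and 109 TPM in the anti-PD-1 tumors, 89.7, 20.5 and 37.2 TPM in the DOX/IgG1 tumors and 147, 65.6 and 43.5 TPM in the DOX/anti-PD-1 tumors, and its log2 fold change was −1.69 (SE 0.52). Hist1h1d, the second H1 gene by level, had 90.9, 134 and 81.3 TPM in the IgG1 tumors, 63, 124 and 118 TPM in the anti-PD-1 tumors, 105, 36.2 and 53.4 TPM in the DOX/IgG1 tumors and 150.0, 97.8 and 43.7 TPM in the DOX/anti-PD-1 tumors. Both H1 genes were lowest in DOX/IgG1 tumor 2 and overlapped between DOX/IgG1 and IgG1.

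Hist2h2bb, the H2B gene at chr3:96269752-96270132, plus strand, whose promoter is shown above, had 246, 197 and 146 TPM in the IgG1 tumors, 211, 276 and 233 TPM in the anti-PD-1 tumors, 191, 54.6 and 45.8 TPM in the DOX/IgG1 tumors and 264, 173 and 63.5 TPM in the DOX/anti-PD-1 tumors. It was lowest in DOX/IgG1 tumors 2 and 3 and DOX/anti-PD-1 tumor 3. Hist1h2bc, an H2B gene at chr13:23684199-23692908, plus strand, varied less, with 140.4, 168 and 128 TPM in the IgG1 tumors, 123, 137 and 183 TPM in the anti-PD-1 tumors, 92.8, 133 and 122 TPM in the DOX/IgG1 tumors and 180.4, 128 and 91.1 TPM in the DOX/anti-PD-1 tumors, and all 4 groups overlapped. Hist2h3b, an H3 gene at chr3:96268654-96269141, plus strand, had 41.5, 69.2 and 38.2 TPM in the IgG1 tumors, 44.4, 92.2 and 52.7 TPM in the anti-PD-1 tumors, 21.3, 20.2 and 19.5 TPM in the DOX/IgG1 tumors and 137, 78.6 and 34.4 TPM in the DOX/anti-PD-1 tumors, and its DOX/IgG1 tumors were below all others. Hist1h4d, an H4 gene at chr13:23581598-23582735, plus strand, had 129, 69.5 and 47.8 TPM in the IgG1 tumors, 63.9, 46.4 and 93 TPM in the anti-PD-1 tumors, 81.8, 28.1 and 25.2 TPM in the DOX/IgG1 tumors and 135, 63.6 and 53.8 TPM in the DOX/anti-PD-1 tumors, with overlap between all groups. Its log2 fold change was −0.94 (SE 0.50), against −1.20 (SE 0.29) for Hist2h3b, −1.28 (SE 0.50) for Hist2h2bb and −0.33 (SE 0.23) for Hist1h2bc.

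Not every member was lower in DOX/IgG1. Hist2h2be, an H2B gene known for a variant in olfactory neurons, had 1.51, 2.67 and 1.98 TPM in the IgG1 tumors, 2.46, 1.90 and 1.71 TPM in the anti-PD-1 tumors, 6.84, 3.79 and 6.87 TPM in the DOX/IgG1 tumors and 2.11, 2.72 and 3.20 TPM in the DOX/anti-PD-1 tumors. Every DOX/IgG1 tumor was above all others, at a low level. Hist1h3d, an H3 gene, was listed at 0 in IgG1 tumors 2 and 3, DOX/IgG1 tumor 2 and DOX/anti-PD-1 tumor 3, with 17.3, 0 and 0 TPM in the IgG1 tumors, 29.3, 25.9 and 16.9 TPM in the anti-PD-1 tumors, 26.3, 0 and 11.4 TPM in the DOX/IgG1 tumors and 23.9, 12.7 and 0 TPM in the DOX/anti-PD-1 tumors. Hist1h2bk, an H2B gene with many values of 0, was again lower, with 14.8, 20.3 and 24.7 TPM in the IgG1 tumors, 0, 18.3 and 28.2 TPM in the anti-PD-1 tumors, 0, 0 and 8.76 TPM in the DOX/IgG1 tumors and 0, 82.2 and 0 TPM in the DOX/anti-PD-1 tumors, and the DOX/IgG1 tumors were below the IgG1 tumors.

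Over all 68 genes the median log2 fold change in DOX/IgG1 versus IgG1 was −0.80, with 12 genes higher, 54 lower and 2 at no difference, beside a median of 0.12 over all 13874 genes tested. A gene listed at 0 enters these medians as 0 on the log2(TPM + 1) scale. For 50 of the 68 genes 3 or more of the 6 tumors stood at 1 TPM or more, and these were tested, with a median of −0.80. By limma with Benjamini-Hochberg adjustment over all genes, called where the adjusted p was under 0.1 and the log2 fold change beyond 1 in either direction, 1 of these 50, Hist1h2af, was past the limits beside 0.036% of all genes. It reached the minimum level mainly through the IgG1 tumors, and with 1 tumor left out the count ran from 0 to 7, the latter among 122 genes past the limits without DOX/IgG1 tumor 1. Groups did not overlap and DOX/IgG1 was lower for 10 of 50 beside 4.64% of all genes, and higher for 1 of 50 (Hist2h2be) beside 9.31%.

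With anti-PD-1 on both sides, DOX/anti-PD-1 versus anti-PD-1, the summed histone TPM was lower on average but overlapped, with a log2 ratio of −0.51 (SE 0.63) (n = 3 and 3). H2A had the ratio furthest from 0, −0.92 (SE 0.83), followed by H3 with −0.31 (SE 0.74), H1 with −0.24 (SE 0.46), H4 with −0.21 (SE 0.41) and H2B with −0.16 (SE 0.55). The direction changed without DOX/anti-PD-1 tumor 3 for the whole sum, with a ratio of 0.09, and for H1 (0.17), H2B (0.36), H3 (0.36) and H4 (0.15). For H2A the ratio stayed below 0 with any 1 tumor left out, from −1.38 to −0.12, the latter without that tumor. Without DOX/anti-PD-1 tumor 1 the ratio of the whole sum was −0.89, and it was −0.79 for H3, −0.62 for H1, −0.50 for H2B and −0.45 for H4.

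Hist1h2an, an H2A gene, had 87.3, 0 and 0 TPM in the IgG1 tumors, 72.3, 48.3 and 25.8 TPM in the anti-PD-1 tumors, 0, 19.6 and 0 TPM in the DOX/IgG1 tumors and 0, 18.9 and 0 TPM in the DOX/anti-PD-1 tumors. It was listed at 0 in 2 of 3 DOX/anti-PD-1 tumors, and the log2 fold change was −4.08 (SE 1.03) with an adjusted p of 0.479 by limma, the smallest of the histone genes. Hist1h2ac, another H2A gene, had 45.1, 50.2 and 0 TPM in the IgG1 tumors, 15.9, 76.8 and 55.8 TPM in the anti-PD-1 tumors, 0, 0 and 0 TPM in the DOX/IgG1 tumors and 0, 66.7 and 0 TPM in the DOX/anti-PD-1 tumors. Of its DOX/anti-PD-1 tumors only tumor 2 was above 0. Hist1h4k, an H4 gene, had 87.8, 39 and 48 TPM in the IgG1 tumors, 20.3, 52.2 and 36 TPM in the anti-PD-1 tumors, 66.7, 0 and 34.2 TPM in the DOX/IgG1 tumors and 0, 76.3 and 0 TPM in the DOX/anti-PD-1 tumors, and was likewise listed at 0 in DOX/anti-PD-1 tumors 1 and 3. The log2 fold change was −3.37 (SE 1.43) for Hist1h2ac and −3.03 (SE 1.43) for Hist1h4k.

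Other members lay on the other side of 0. Hist1h4f, an H4 gene, had 18.5, 15.5 and 4.86 TPM in the IgG1 tumors, 13, 31.9 and 17.3 TPM in the anti-PD-1 tumors, 26.5, 9.38 and 6.86 TPM in the DOX/IgG1 tumors and 48.5, 31.2 and 32.1 TPM in the DOX/anti-PD-1 tumors, with a log2 fold change of 0.88 (SE 0.36) and the largest value in DOX/anti-PD-1 tumor 1. Hist1h3c, an H3 gene, had 27.9, 28.1 and 33.3 TPM in the IgG1 tumors, 8.05, 23.1 and 24.1 TPM in the anti-PD-1 tumors, 14.4, 6.91 and 16.2 TPM in the DOX/IgG1 tumors and 44.4, 49.9 and 14.6 TPM in the DOX/anti-PD-1 tumors, with a log2 fold change of 0.91 (SE 0.53). For both genes the anti-PD-1 tumors with and without DOX overlapped. Hist1h2bl, an H2B gene with a log2 fold change near 0, −0.20 (SE 1.43), had 59, 0 and 0 TPM in the IgG1 tumors, 22.6, 11.1 and 22.9 TPM in the anti-PD-1 tumors, 0, 9.38 and 0 TPM in the DOX/IgG1 tumors and 136, 0 and 32.1 TPM in the DOX/anti-PD-1 tumors, the highest in DOX/anti-PD-1 tumor 1 and listed at 0 in DOX/anti-PD-1 tumor 2.

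Over all 68 genes the median log2 fold change was −0.65, with 17 genes higher, 50 lower and 1 at no difference, beside 0.11 over all 13736 genes tested. By class it was −1.16 for H2A, −0.86 for H4, −0.50 for H3, −0.19 for H2B and −0.06 for H1. Of the 60 histone genes tested 0 were called by limma beside 0% of all genes, and 5 of them had an unadjusted p below 0.05, beside 1185 of all genes (8.63%). Hist1h2an, among these 5, reached the minimum level mainly through the anti-PD-1 tumors. Groups did not overlap and DOX/anti-PD-1 was lower for 3 of 60 (Hist1h2an, Hist1h2bq and Hist1h4c, named after their values were seen) beside 3.84% of all genes, and higher for 0 of 60 beside 11.1%. Without DOX/anti-PD-1 tumor 2 Hist1h2ac, Hist1h2an and Hist1h4k were called, among 4 genes, but all 3 were listed at 0 in the other 2 DOX/anti-PD-1 tumors and nothing is read from these calls. Without DOX/anti-PD-1 tumor 3 the median of the tested histone genes was −0.07, from −0.66 with all 6 tumors. In the same comparison all 7 adipocyte markers (median 1.39) and all 4 fibroblast markers (median 0.79) were higher, and neither sum overlapped between the groups. Their part in the histone values was not tested.

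Anti-PD-1 versus IgG1, which asks what checkpoint blockade changed without chemotherapy, shares its control tumors with the pair DOX/IgG1 versus IgG1 and its treated tumors with DOX/anti-PD-1 versus anti-PD-1. The summed histone TPM overlapped, with a log2 ratio of 0.26 (SE 0.33) (n = 3 and 3). The ratio was 0.46 (SE 0.42) for H2A, 0.28 (SE 0.29) for H3, 0.17 (SE 0.41) for H4, 0.04 (SE 0.22) for H2B and −0.02 (SE 0.31) for H1. IgG1 tumor 1 had a higher sum than every anti-PD-1 tumor. Without IgG1 tumor 3 the ratio was 0.00 for the whole sum, 0.16 for H2A, −0.14 for H2B and −0.09 for H4, and without IgG1 tumor 1 it was 0.51 for the whole sum, 0.81 for H2A, 0.16 for H2B and 0.53 for H4. For H3 it was 0.10 without anti-PD-1 tumor 2 and 0.51 without anti-PD-1 tumor 1. The H1 ratio was above 0 after median-of-ratios scaling. It was 0.15 without IgG1 tumor 2 and −0.32 without IgG1 tumor 3.

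Hist2h2aa1 did not overlap in this pair, as each anti-PD-1 tumor was above each IgG1 tumor, with a log2 fold change of 1.16 (SE 0.38) and an adjusted p of 0.996 by limma. For its neighbour Hist2h2aa2, with no read window of its own, the log2 fold change was −0.48 (SE 0.47), and it was 0.09 without anti-PD-1 tumor 1. Hist1h2ap had a log2 fold change of 1.00 (SE 0.35) and its groups did not overlap. Hist1h3h, an H3 gene, had 41.7, 73.8 and 37.9 TPM in the IgG1 tumors, 8.85, 39 and 10.4 TPM in the anti-PD-1 tumors, 53, 13.7 and 42.5 TPM in the DOX/IgG1 tumors and 48.6, 32.8 and 0 TPM in the DOX/anti-PD-1 tumors. Its log2 fold change was −1.60 (SE 0.50), with overlap between anti-PD-1 and IgG1. Hist1h3d, listed at 0 in 2 IgG1 tumors, had a log2 fold change of 3.21 (SE 0.95), and Hist1h2an, likewise at 0 in 2 IgG1 tumors, had 3.37 (SE 1.41).

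Over all 68 genes the median was 0.11, with 38 genes higher, 27 lower and 3 at no difference, beside −0.03 over all 13692 genes tested. By class it was 0.70 for H3, 0.55 for H2A, 0.37 for H4, −0.02 for H1 and −0.24 for H2B. Of the 60 histone genes tested 0 were called by limma beside 0% of all genes, while 10 had an unadjusted p below 0.05, beside 630 of all genes (4.60%). Some tested members, such as Hist1h3d and Hist1h2an, reached the minimum level mainly through the anti-PD-1 tumors. The count of 10 is therefore not read as a difference from all genes. The smallest adjusted p of the tested histone genes was 0.934, for the H2B gene Hist1h2bp. Groups did not overlap and anti-PD-1 was higher for 4 of 60 (Hist1h2ap, Hist1h2bp, Hist1h3a and Hist2h2aa1) beside 3.64% of all genes, and lower for 1 of 60 (Hist1h3c) beside 6.24%, names given after their values were seen. Without IgG1 tumor 1, Hist1h2an, Hist1h2bl, Hist1h3d and the H4 gene Hist1h4m were the 4 genes called, but all were listed at 0 in the other 2 IgG1 tumors and nothing is read from these calls. Without IgG1 tumor 3 the median of the tested histone genes was −0.06, from 0.21. Among markers of other cell types, all 7 luminal, all 4 fibroblast and all 3 endothelial markers were lower in anti-PD-1 than in IgG1. The fibroblast and endothelial sums did not overlap between these groups, with log2 ratios of −0.87 (SE 0.28) and −0.35 (SE 0.15). The 3 salivary markers tested were higher. The part of these markers in the histone values was not tested.

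Under DOX, DOX/anti-PD-1 versus DOX/IgG1 asks what the checkpoint antibody changed beside the chemotherapy, and its baseline is the group for whose low values the genes were singled out. The summed histone TPM was higher in DOX/anti-PD-1 tumors 1 and 2 than in any DOX/IgG1 tumor, while tumor 3 lay among the DOX/IgG1 tumors. The log2 ratio was 0.76 (SE 0.73) (n = 3 and 3), and it was 1.36 without DOX/anti-PD-1 tumor 3 and 0.38 without DOX/anti-PD-1 tumor 1. By class it was 0.99 (SE 0.82) for H3, 0.90 (SE 0.61) for H4, 0.72 (SE 0.71) for H2B, 0.71 (SE 0.87) for H2A and 0.65 (SE 0.65) for H1. Without DOX/anti-PD-1 tumor 1 the ratio was 0.51 for H3, 0.38 for H2B, 0.25 for H2A and 0.27 for H1, and without DOX/anti-PD-1 tumor 3 it was 1.66 for H3 and 1.24 for H2B. For H4 it was 0.66 without DOX/IgG1 tumor 3 and 1.39 without DOX/IgG1 tumor 1, where H1 had 1.07.

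Hist1h3a, an H3 gene at chr13:23761853-23762386, minus strand, whose stem-loop is shown above, had 8.17, 13.1 and 0 TPM in the IgG1 tumors, 19.6, 14.5 and 21.1 TPM in the anti-PD-1 tumors, 0, 0 and 0 TPM in the DOX/IgG1 tumors and 18.2, 21.4 and 9.34 TPM in the DOX/anti-PD-1 tumors. It was listed at 0 in every DOX/IgG1 tumor and above 0 in every DOX/anti-PD-1 tumor, so no fold is given. It reached the minimum level through the DOX/anti-PD-1 tumors alone, and no test is read for it. For Hist2h3b the log2 fold change was 1.78 (SE 0.45) (adjusted p = 0.988 by limma), and for Hist1h4f it was 1.52 (SE 0.48), both without overlap. Hist1h2af had a log2 fold change of 4.02 (SE 1.57) with an adjusted p of 0.988 and was listed at 0 in DOX/anti-PD-1 tumor 3. Hist2h2be, again in the other direction, had −0.87 (SE 0.45).

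With the choice of genes favouring this direction, the median over all 68 was 0.63, with 48 genes higher, 18 lower and 2 at no difference, beside −0.04 over all 13946 genes tested. By class it was 0.84 for H1, 0.80 for H3, 0.64 for H2B, 0.61 for H2A and 0.28 for H4. Of the 48 histone genes tested 0 were called by limma beside 0% of all genes, while 6 had an unadjusted p below 0.05, beside 655 of all genes (4.70%). Hist1h3a, which reached the minimum level through DOX/anti-PD-1 alone, is among these 6 and among the genes without overlap, and its place in both counts was fixed by the minimum, so they are not read as a difference from all genes. Groups did not overlap and DOX/anti-PD-1 was higher for 4 of 48 (Hist1h3a, Hist1h3e, Hist1h4f and Hist2h3b, named after their values were seen) beside 4.27% of all genes, and lower for 1 of 48 (Hist2h2be) beside 5.95%. Without DOX/anti-PD-1 tumor 3 the 1 gene called was Hist1h2af, which was at or near 0 in the DOX/IgG1 tumors, so nothing is read from it, and without DOX/IgG1 tumor 1, 0 histone genes were called among 4 genes. The median of the tested histone genes, 0.60 with all tumors, ran from 0.28 to 1.42 when 1 tumor was left out, with the highest value without DOX/anti-PD-1 tumor 3.

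Whether the DOX difference itself differed with anti-PD-1 was tested as an interaction over all 12 tumors. By limma 0 of the 63 histone genes tested were called, and 4 had an unadjusted p below 0.05, beside 694 of all 14735 genes (4.71%). Called among all genes was 1 (0.00679%), the salivary gene Bpifa2, named after its value was seen, which was listed at 0 in all tumors outside DOX/IgG1 and reached the minimum level through that group alone, so nothing is read from it. The count over all genes was 0 with either scaling, a pseudocount of 0.1 TPM, a minimum of 5 TPM or a replicate block. The median interaction over all 68 histone genes was 0.33, beside −0.01 over all genes, and the smallest adjusted p was 0.993, shared by most histone genes. Without DOX/anti-PD-1 tumor 3 the 1 gene called was Hist1h2af, whose low DOX/IgG1 values belong to the choice of genes, and nothing is read from it.

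**Figure D4:**
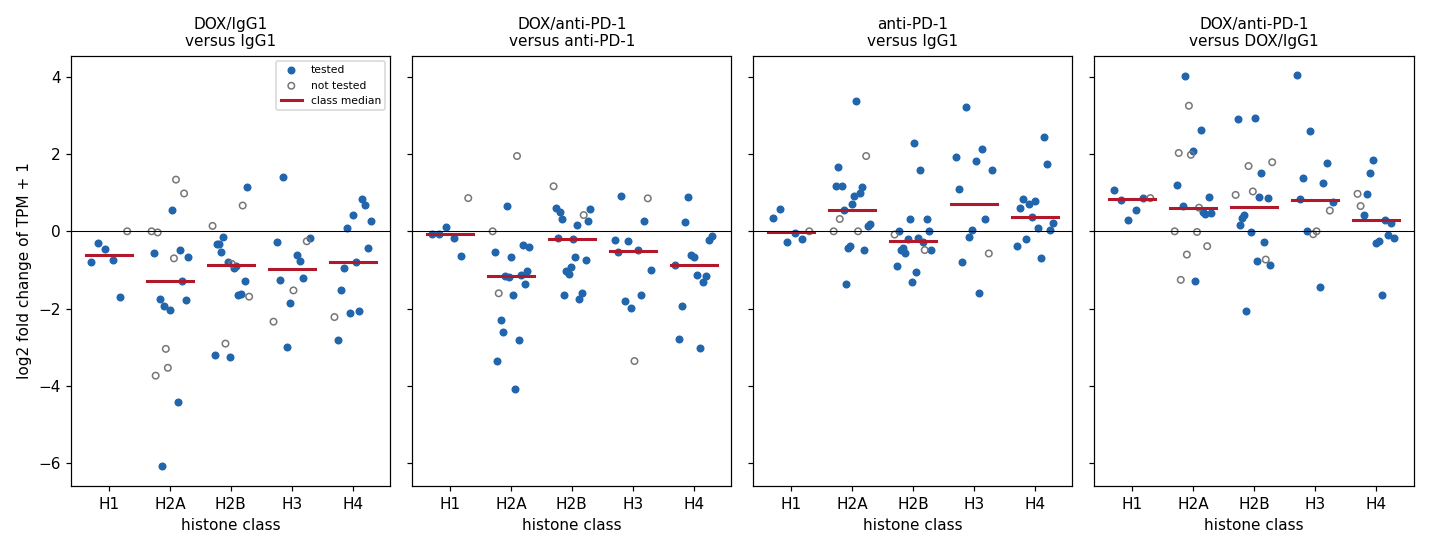
Log2 fold change of each histone gene on the log2(TPM + 1) scale (y axis) by class (x axis) in the 4 comparisons. Filled points are genes tested, open points genes below the minimum level, and red lines class medians, which for H2A were −1.28 in DOX/IgG1 versus IgG1 and 0.61 in DOX/anti-PD-1 versus DOX/IgG1.

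Scaling by median of ratios moved the median of all genes by −0.11 in DOX/IgG1 versus IgG1 and by −0.12 in DOX/anti-PD-1 versus anti-PD-1. The log2 ratio of summed histone TPM, DOX/IgG1 versus IgG1, was then −1.13, and the log2 ratio of summed histone TPM, DOX/anti-PD-1 versus anti-PD-1, was −0.64. The 43 other genes listed between the Hist1 genes included 7 at 1 TPM or more in at least 3 tumors, among them the milk fat protein gene Btn1a1 and the iron regulator Hfe. Their median log2 fold change was 0.00 in DOX/IgG1 versus IgG1, 0.41 in DOX/anti-PD-1 versus anti-PD-1, −0.19 in anti-PD-1 versus IgG1 and −0.15 in DOX/anti-PD-1 versus DOX/IgG1.

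Histone models were short, with a median of 536.5 bases, so other short genes were set beside them, a comparison chosen after seeing the data. The 177 other genes of at most 600 bases had a median log2 fold change of −0.09 in DOX/IgG1 versus IgG1, −0.17 in DOX/anti-PD-1 versus anti-PD-1, 0.08 in anti-PD-1 versus IgG1 and 0.02 in DOX/anti-PD-1 versus DOX/IgG1. Relative to their summed TPM, the log2 ratio of the histone sum was −0.83, −0.36, 0.24 and 0.71 in the same order. In DOX/anti-PD-1 tumor 3 both groups of genes deviated downward from their means over all tumors, with a median of −1.03 for histone genes and −0.51 for the short genes. The 37 histone genes of at most 600 bases had log2 ratios of sums of −1.16, −0.58, 0.30 and 0.88, and the 31 longer ones −0.73, −0.37, 0.16 and 0.52. For the 20 genes whose models stop after the stem-loop the ratios were −0.99, −0.56, 0.34 and 0.78, for the 26 that run past it −1.07, −0.50, 0.12 and 0.70, and for the 22 without one −0.99, −0.46, 0.24 and 0.78. The part of transcript length in the result was not tested.

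Several members were rare or tied to other tissues. Hist1h1t, the testis linker histone, was listed above 0 in DOX/anti-PD-1 tumor 3 alone, at 4.97 TPM. Hist1h2ba, the testis H2B, had 0.190, 0 and 0 TPM in the IgG1 tumors, 0, 0 and 0 TPM in the anti-PD-1 tumors, 0.590, 0 and 0 TPM in the DOX/IgG1 tumors and 0, 10.3 and 0 TPM in the DOX/anti-PD-1 tumors. Hist3h2a, an H2A gene outside the large clusters, was above 0 in all tumors, with 35.7, 42.9 and 30.5 TPM in the IgG1 tumors, 41.2, 34.3 and 49.8 TPM in the anti-PD-1 tumors, 24.1, 19 and 24.4 TPM in the DOX/IgG1 tumors and 37.2, 40.6 and 20 TPM in the DOX/anti-PD-1 tumors, and its DOX/IgG1 tumors were below all IgG1 and anti-PD-1 tumors. Its neighbour Hist3h2ba, an H2B gene, had 2.37, 8.98 and 0 TPM in the IgG1 tumors, 2.90, 2.23 and 0 TPM in the anti-PD-1 tumors, 0, 0 and 0 TPM in the DOX/IgG1 tumors and 0, 4.86 and 6.02 TPM in the DOX/anti-PD-1 tumors. Hist4h4, the H4 gene of chromosome 6, lay between 0.46 and 2.92 TPM, with 0.460, 1.74 and 1.44 TPM in the IgG1 tumors, 0.560, 1.51 and 2.92 TPM in the anti-PD-1 tumors, 1.56, 1.44 and 1.74 TPM in the DOX/IgG1 tumors and 2.57, 1.11 and 0.580 TPM in the DOX/anti-PD-1 tumors, and all groups overlapped.

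A further set of members was listed at 0 in some tumors of a group and well above 0 in others. Hist1h2ag, an H2A gene, had 0, 36 and 121 TPM in the IgG1 tumors, 0, 3.62 and 55.3 TPM in the anti-PD-1 tumors, 0, 0 and 80.7 TPM in the DOX/IgG1 tumors and 0, 22.4 and 0 TPM in the DOX/anti-PD-1 tumors. Hist1h2ah, also H2A, had 25.4, 20.1 and 0 TPM in the IgG1 tumors, 0, 14.3 and 13.7 TPM in the anti-PD-1 tumors, 0, 0 and 0 TPM in the DOX/IgG1 tumors and 35.1, 22.8 and 0 TPM in the DOX/anti-PD-1 tumors. Hist1h2bg, an H2B gene paired head to head with Hist1h2ae, had 28.6, 8.83 and 7.28 TPM in the IgG1 tumors, 0, 19 and 36.8 TPM in the anti-PD-1 tumors, 42.9, 3.46 and 8.07 TPM in the DOX/IgG1 tumors and 0, 23.5 and 0 TPM in the DOX/anti-PD-1 tumors. None of the 3 separated the groups. The H4 gene Hist1h4h had 44.2, 41.8 and 44.9 TPM in the IgG1 tumors, 51.7, 39.3 and 89 TPM in the anti-PD-1 tumors, 40.5, 26.1 and 0 TPM in the DOX/IgG1 tumors and 77.4, 38.1 and 16.3 TPM in the DOX/anti-PD-1 tumors, and Hist1h4m, also H4, had 52, 0 and 0 TPM in the IgG1 tumors, 30.9, 9.96 and 23.1 TPM in the anti-PD-1 tumors, 12.1, 0.740 and 12.4 TPM in the DOX/IgG1 tumors and 41.9, 0 and 11.9 TPM in the DOX/anti-PD-1 tumors; both overlapped between the anti-PD-1 tumors with and without DOX.

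Slbp, which binds the stem-loop and is needed for histone mRNA processing and translation, had 45.2, 36.2 and 35.5 TPM in the IgG1 tumors, 71.1, 58 and 39.7 TPM in the anti-PD-1 tumors, 39.7, 38.9 and 57.8 TPM in the DOX/IgG1 tumors and 42.9, 58.9 and 52.8 TPM in the DOX/anti-PD-1 tumors. Npat, the coactivator of histone gene transcription, had 21.3, 18.2 and 17.1 TPM in the IgG1 tumors, 10.5, 18.7 and 15.4 TPM in the anti-PD-1 tumors, 22.6, 11.7 and 29.1 TPM in the DOX/IgG1 tumors and 11.4, 12.4 and 15.3 TPM in the DOX/anti-PD-1 tumors, and Casp8ap2, a processing factor, had 9.08, 20.1 and 18.5 TPM in the IgG1 tumors, 27.7, 19.3 and 19.5 TPM in the anti-PD-1 tumors, 28.8, 28.5 and 22.5 TPM in the DOX/IgG1 tumors and 21.9, 16.3 and 57.5 TPM in the DOX/anti-PD-1 tumors. Slbp and Npat overlapped between DOX/IgG1 and IgG1, and Casp8ap2 was higher in every DOX/IgG1 tumor than in any IgG1 tumor. The highest of the 14 listed genes of histone mRNA synthesis and processing were Srrt, a partner of the cap-binding complex, with 133, 209 and 177 TPM in the IgG1 tumors, 146, 121 and 97 TPM in the anti-PD-1 tumors, 235, 199 and 189 TPM in the DOX/IgG1 tumors and 169, 216 and 162 TPM in the DOX/anti-PD-1 tumors, and Cpsf3, the endonuclease that forms the mRNA end, with 45.3, 43.4 and 59.1 TPM in the IgG1 tumors, 42.3, 48.8 and 59.6 TPM in the anti-PD-1 tumors, 52.5, 49.5 and 43.8 TPM in the DOX/IgG1 tumors and 49.8, 64.5 and 39.3 TPM in the DOX/anti-PD-1 tumors. The list's sum varied 1.59-fold over the tumors, against 4.30-fold for the histone sum. In DOX/IgG1 versus IgG1, DOX/anti-PD-1 versus anti-PD-1, anti-PD-1 versus IgG1 and DOX/anti-PD-1 versus DOX/IgG1 the median log2 fold changes were 0.16, −0.01, 0.05 and −0.11. By limma 0 of 14 were called in the last 3 of them, and 1, 0 and 0 had an unadjusted p below 0.05 in this order.

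Replacement and other variant histones, 11 genes outside the naming rule, summed to 1555, 1497 and 1223 TPM in the IgG1 tumors, 1572, 1649 and 1894 TPM in the anti-PD-1 tumors, 1462, 1328 and 1312 TPM in the DOX/IgG1 tumors and 1704, 1445 and 1022 TPM in the DOX/anti-PD-1 tumors. The range was 1.85-fold. H2afx and Cenpa among them are not independent of the cell cycle. H3f3b and H3f3a, which both encode H3.3, were the most abundant: H3f3b had 688, 829.5 and 505 TPM in the IgG1 tumors, 821, 632 and 888 TPM in the anti-PD-1 tumors, 784, 701 and 690.4 TPM in the DOX/IgG1 tumors and 923, 549 and 573 TPM in the DOX/anti-PD-1 tumors, and H3f3a had 418, 324 and 353 TPM in the IgG1 tumors, 279, 524 and 481 TPM in the anti-PD-1 tumors, 369, 412 and 302 TPM in the DOX/IgG1 tumors and 408, 512 and 192 TPM in the DOX/anti-PD-1 tumors. The medians were −0.39, −0.27, 0.23 and 0.35 in the same order of comparisons, and by limma 0 of 11 were called in the last 3, with 3, 2 and 1 at an unadjusted p below 0.05. The 15 histone chaperones, which carry histones to and from DNA, varied 2.01-fold, with medians of 0.24, −0.01, 0.22 and −0.10. Of these 15 genes 0 were called by limma in the last 3, with 0, 1 and 0 at an unadjusted p below 0.05. Their highest genes were Atrx, a remodeler that deposits H3.3, with 194, 723 and 739 TPM in the IgG1 tumors, 861, 564 and 409.8 TPM in the anti-PD-1 tumors, 706, 512 and 631 TPM in the DOX/IgG1 tumors and 572, 433 and 632 TPM in the DOX/anti-PD-1 tumors, and the histone-binding protein Rbbp7, with 115, 134 and 149 TPM in the IgG1 tumors, 161, 159 and 159.9 TPM in the anti-PD-1 tumors, 134, 165 and 136 TPM in the DOX/IgG1 tumors and 147, 173 and 113 TPM in the DOX/anti-PD-1 tumors.

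S phase genes, 42 in number, summed to 1019.8, 1086 and 1134 TPM in the IgG1 tumors, 1136, 1304 and 1244 TPM in the anti-PD-1 tumors, 1287, 875 and 1030.3 TPM in the DOX/IgG1 tumors and 1549, 1469 and 1020.3 TPM in the DOX/anti-PD-1 tumors. Their range was 1.77-fold. Pcna, the replication clamp, had 108, 111 and 159 TPM in the IgG1 tumors, 145, 199 and 157 TPM in the anti-PD-1 tumors, 157, 155 and 165 TPM in the DOX/IgG1 tumors and 223, 188 and 105 TPM in the DOX/anti-PD-1 tumors, and Mcm7, part of the replicative helicase, had 87.9, 116 and 171 TPM in the IgG1 tumors, 135, 117 and 105 TPM in the anti-PD-1 tumors, 164, 107 and 122 TPM in the DOX/IgG1 tumors and 121, 177 and 155 TPM in the DOX/anti-PD-1 tumors. The S phase sum was lowest in DOX/IgG1 tumor 2, which also had the lowest histone sum. The medians were −0.17, 0.06, 0.29 and 0.37 in the same order, and of the 42 genes 0 were called by limma in the last 3 comparisons, with 0, 2 and 5 at an unadjusted p below 0.05. Per unit of S phase TPM, histone TPM was 3.98, 2.64 and 1.77 in the IgG1 tumors, 2.41, 2.93 and 3.07 in the anti-PD-1 tumors, 1.91, 1.09 and 1.18 in the DOX/IgG1 tumors and 2.64, 2.20 and 1.02 in the DOX/anti-PD-1 tumors. The log2 ratio of this quotient was −0.98 (SE 0.42), −0.62 (SE 0.43), 0.07 (SE 0.35) and 0.43 (SE 0.49).

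Mitosis genes, 24 in number, summed to 604, 886 and 829 TPM in the IgG1 tumors, 958, 1065 and 777 TPM in the anti-PD-1 tumors, 861, 261 and 503 TPM in the DOX/IgG1 tumors and 1116, 929 and 500.4 TPM in the DOX/anti-PD-1 tumors. Their range was 4.28-fold. DOX/IgG1 tumor 2 was lowest here as well, and DOX/anti-PD-1 tumor 3 and DOX/IgG1 tumor 3 were next. Top2a, the topoisomerase that doxorubicin poisons, had 112, 128 and 131 TPM in the IgG1 tumors, 137, 168 and 124 TPM in the anti-PD-1 tumors, 107, 33.6 and 85.5 TPM in the DOX/IgG1 tumors and 115, 155 and 60.1 TPM in the DOX/anti-PD-1 tumors, and the proliferation marker Mki67 had 57, 152 and 98.1 TPM in the IgG1 tumors, 149.7, 137 and 98.2 TPM in the anti-PD-1 tumors, 81.5, 25.2 and 51.7 TPM in the DOX/IgG1 tumors and 149.7, 89.4 and 33.9 TPM in the DOX/anti-PD-1 tumors. On the log2(TPM + 1) scale the difference was below 0 for all 24 in DOX/IgG1 versus IgG1 (median −0.58), beside 39.4% of all genes tested, although the sums overlapped and mean TPM was higher in DOX/IgG1 for Kif23, Cdk1 and Ccnb2. It was below 0 for 1 of 24 in DOX/anti-PD-1 versus DOX/IgG1 (median 0.64), beside 53.7% of all genes tested, while the medians were −0.16 in DOX/anti-PD-1 versus anti-PD-1 and 0.25 in anti-PD-1 versus IgG1. Of the 24 genes 0 were called by limma in DOX/anti-PD-1 versus anti-PD-1, anti-PD-1 versus IgG1 and DOX/anti-PD-1 versus DOX/IgG1, and 2, 1 and 1 had an unadjusted p below 0.05. Per unit of mitosis TPM, histone TPM was 6.72, 3.23 and 2.43 in the IgG1 tumors, 2.86, 3.59 and 4.91 in the anti-PD-1 tumors, 2.85, 3.65 and 2.42 in the DOX/IgG1 tumors and 3.66, 3.49 and 2.09 in the DOX/anti-PD-1 tumors. This quotient had a 3.21-fold range, and its log2 ratio was −0.36 (SE 0.47), −0.31 (SE 0.34), −0.02 (SE 0.49) and 0.03 (SE 0.31) in the order of comparisons used for the S phase genes.

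Targets of p53, which halts the cell cycle after DNA damage, were 12 genes that summed to 335, 431 and 435 TPM in the IgG1 tumors, 479, 346 and 508 TPM in the anti-PD-1 tumors, 853, 707 and 579 TPM in the DOX/IgG1 tumors and 391, 309 and 713 TPM in the DOX/anti-PD-1 tumors. Cdkn1a, the cell cycle inhibitor p21, had 15.2, 12.4 and 8.99 TPM in the IgG1 tumors, 14, 10.7 and 29.3 TPM in the anti-PD-1 tumors, 54.8, 36.4 and 29.7 TPM in the DOX/IgG1 tumors and 24, 13.7 and 67.6 TPM in the DOX/anti-PD-1 tumors, and was higher in every DOX/IgG1 tumor, in DOX/anti-PD-1 tumors 1 and 3 and in anti-PD-1 tumor 3 than in any IgG1 tumor. The most abundant were Trp53inp1, a p53-induced nuclear protein, with 59.3, 103 and 115 TPM in the IgG1 tumors, 147, 118 and 175 TPM in the anti-PD-1 tumors, 196, 210.4 and 151 TPM in the DOX/IgG1 tumors and 48.5, 65.9 and 151 TPM in the DOX/anti-PD-1 tumors, and Mdm2, the ligase that limits p53, with 42.1, 85.5 and 89.6 TPM in the IgG1 tumors, 109.8, 62.1 and 57.6 TPM in the anti-PD-1 tumors, 168, 78.8 and 92.3 TPM in the DOX/IgG1 tumors and 78.4, 53.5 and 138 TPM in the DOX/anti-PD-1 tumors. The medians were 0.88, 0.28, −0.11 and −0.45 in the same order, and by limma 0 of 12 were called in the last 3 comparisons, with 1, 1 and 3 at an unadjusted p below 0.05. In DOX/anti-PD-1 tumor 3 the p53 target sum was the highest and the histone sum the lowest of its group, whereas DOX/IgG1 tumor 1 had the highest p53 target sum of all tumors and the highest histone sum of its group. The part of these genes in the histone values was not tested.

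**Figure D5:**
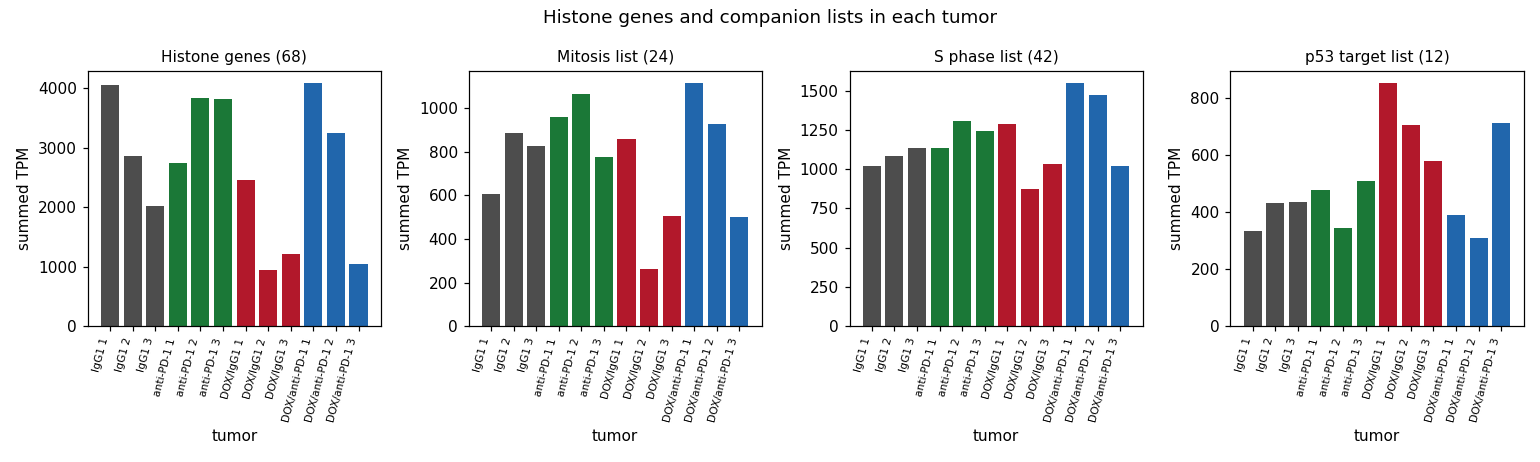
Summed TPM per tumor (y axis, from 0) of the 68 histone genes, 24 mitosis genes, 42 S phase genes and 12 p53 targets, with 1 bar per tumor, grouped by treatment (x axis). DOX/IgG1 tumor 2 is lowest for histone genes (950.3 TPM), mitosis genes (261 TPM) and S phase genes (875 TPM).

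Markers of other cell types were set beside the histone sums, as tumors can hold different amounts of neighbouring tissue. The luminal epithelial markers, 7 of 7 listed with Epcam highest (mean 729 TPM), summed to 3670.2, 2582 and 3199.6 TPM in the IgG1 tumors, 2917, 2190.1 and 2420.3 TPM in the anti-PD-1 tumors, 2083, 3227 and 3725 TPM in the DOX/IgG1 tumors and 3078, 2789.8 and 2281 TPM in the DOX/anti-PD-1 tumors. Epcam had 938, 846 and 954 TPM in the IgG1 tumors, 911, 712 and 757 TPM in the anti-PD-1 tumors, 565, 522 and 418 TPM in the DOX/IgG1 tumors and 734, 920.1 and 468 TPM in the DOX/anti-PD-1 tumors, and was lower in every DOX/IgG1 tumor than in any IgG1 tumor. The largest part of the sums of DOX/IgG1 tumors 2 and 3 was the keratin gene Krt19, with 847, 347 and 601 TPM in the IgG1 tumors, 406, 255 and 265 TPM in the anti-PD-1 tumors, 302, 1261 and 1801 TPM in the DOX/IgG1 tumors and 656, 421 and 779.9 TPM in the DOX/anti-PD-1 tumors, and on the log2 scale 6 of 7 luminal markers were lower in DOX/IgG1 than in IgG1. Salivary gland markers, 7 of 8 listed with Amy1 highest (mean 17.1 TPM), summed to 6.41, 18.7 and 12 TPM in the IgG1 tumors, 28.6, 10.3 and 23.6 TPM in the anti-PD-1 tumors, 60.9, 98 and 120.1 TPM in the DOX/IgG1 tumors and 27, 20.7 and 23.3 TPM in the DOX/anti-PD-1 tumors, and every DOX/IgG1 tumor was above all others. Skeletal muscle markers, 8 of 8 listed with Acta1 highest (mean 52.4 TPM), summed to 145, 37.6 and 482 TPM in the IgG1 tumors, 521, 66.4 and 31.9 TPM in the anti-PD-1 tumors, 50, 136 and 184 TPM in the DOX/IgG1 tumors and 865, 13 and 152 TPM in the DOX/anti-PD-1 tumors. Adipocyte markers, 7 of 7 listed with Cfd highest (mean 147 TPM), summed to 99.3, 330.3 and 244 TPM in the IgG1 tumors, 149, 101 and 171 TPM in the anti-PD-1 tumors, 181, 866 and 137 TPM in the DOX/IgG1 tumors and 830.2, 297 and 237 TPM in the DOX/anti-PD-1 tumors, with the highest sums in DOX/IgG1 tumor 2 and DOX/anti-PD-1 tumor 1, the tumors with the lowest and the highest histone sum.

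T cell markers, 6 of 6 listed with Cd3e highest (mean 7.89 TPM), summed to 23.2, 16 and 7.70 TPM in the IgG1 tumors, 5.59, 17.1 and 8.81 TPM in the anti-PD-1 tumors, 5.76, 49.2 and 43.3 TPM in the DOX/IgG1 tumors and 16.1, 17.2 and 32.8 TPM in the DOX/anti-PD-1 tumors. B cell markers, 4 of 4 listed with Cd79b highest (mean 0.368 TPM), summed to 0.540, 1.09 and 1.79 TPM in the IgG1 tumors, 0, 0.780 and 0.190 TPM in the anti-PD-1 tumors, 0.870, 1.30 and 0 TPM in the DOX/IgG1 tumors and 0, 3.59 and 0 TPM in the DOX/anti-PD-1 tumors. Both were low beside the histone genes, and DOX/IgG1 tumors 2 and 3 had the highest T cell sums. Macrophage markers, 5 of 5 listed with C1qa highest (mean 117 TPM), summed to 245, 196 and 248 TPM in the IgG1 tumors, 157, 219 and 193 TPM in the anti-PD-1 tumors, 204, 293 and 296 TPM in the DOX/IgG1 tumors and 169, 291 and 215 TPM in the DOX/anti-PD-1 tumors. Fibroblast markers, 4 of 4 listed with Col1a1 highest (mean 358 TPM), summed to 749, 799 and 1239 TPM in the IgG1 tumors, 591, 513 and 401 TPM in the anti-PD-1 tumors, 335, 1313 and 855 TPM in the DOX/IgG1 tumors and 687, 936 and 1066 TPM in the DOX/anti-PD-1 tumors, and endothelial markers, 3 of 3 listed with Pecam1 highest (mean 37.9 TPM), summed to 71, 87.4 and 98.2 TPM in the IgG1 tumors, 69.6, 62.2 and 68 TPM in the anti-PD-1 tumors, 93.2, 94.7 and 56.5 TPM in the DOX/IgG1 tumors and 66.1, 101 and 38.5 TPM in the DOX/anti-PD-1 tumors. No listed marker was at 0 in every tumor. The salivary markers Smr3a and Bpifa2 were listed at 0 in every IgG1 tumor and above 0 in every DOX/IgG1 tumor. By limma 0 markers were called in the other 3 pairwise comparisons, while 6 of 7 adipocyte and 3 of 4 fibroblast markers had an unadjusted p below 0.05 in DOX/anti-PD-1 versus anti-PD-1, all of them higher in DOX/anti-PD-1. For salivary markers no such count is given in DOX/anti-PD-1 versus DOX/IgG1, because Smr3a and Bpifa2 reached the minimum level through DOX/IgG1 alone. In these 3 comparisons at most 1 marker of each other cell type had an unadjusted p below 0.05. The part of these cell types in the histone values was not tested.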

How the data were processed

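RNA from 12 tumors was sequenced with a stranded total RNA kit. Per the sources used here, reads were trimmed with skewer, and STAR and RSEM with the mm10 build are named in the submitters' processing notes. The authors deposited log2(TPM + 1) values per gene and tumor; TPM is named in the methods of the study, and the values alone cannot tell it from FPKM. Returned to TPM, all values were multiples of 0.01, to a tolerance of 0.01 of that step (100% of values). No counts were used, so depth per tumor is unknown and no counting interval is given. Column headers carried a suffix that differed in the 3 DOX/anti-PD-1 tables, which cannot be told apart from that group, and DOX/IgG1 tumor 1 carried the added word test. Neither is explained in the sources used here.

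Members are all genes whose symbol begins with Hist1h to Hist4h. TPM was summed per tumor, class and cluster, and a log2 ratio is the difference of mean log2 sums, with its SE and no p. Single genes were tested with limma 3.58.1 (trend) in R 4.3.3 on log2(TPM + 1), a pseudocount of 1 TPM, for genes at 1 TPM or more in at least 3 tumors. Each comparison was fitted on its 6 tumors and the interaction on all 12. Two-sided p-values were adjusted by Benjamini-Hochberg over all genes tested, with limits of 0.1 for adjusted p and 1 for the absolute log2 fold change. A fold change on this scale understates the change of low genes. Sums, sequences and figures were made in Python 3.11.15. The code was tested on simulated data.

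Gene positions and models came from GENCODE vM21 (GRCm38) and promoters from RefSeq (GRCm38.p6). Of the 68 genes 66 were matched to a model by identifier and 2 by symbol. Named genes were the 2 with the highest mean in each class, every member past both limits, the 3 largest and 3 smallest log2 fold changes among tested members in each comparison, the Hist3 and Hist4 genes, the testis members, Hist1h2af and Hist2h2aa2, and from each companion list the 2 highest with Slbp, Npat, Casp8ap2, Mki67 and Cdkn1a. Members and lists were chosen with earlier results of these data known. Alternatives tried were another pseudocount, other minimum levels, 2 scalings, a replicate block, 1 fit over all tumors, no trend, other ways of summing, each tumor left out, and a sum relative to short genes, which was chosen after seeing the data.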

Additional observations from a re-analysis of the deposited data

Results flagged for a closer look

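Bpifa2, a salivary gland gene and not a histone gene, had 14.4, 21.3 and 53.7 TPM in the DOX/IgG1 tumors and was listed at 0 in the 9 others. Its term in the interaction of DOX and anti-PD-1, −4.73 on the log2(TPM + 1) scale, was past both limits in limma, the only one among 14735 genes tested. It reached the minimum level through the DOX/IgG1 tumors alone, and the term is the DOX/IgG1 versus IgG1 difference of 4.73 with its sign changed, so neither the call nor the size is read. No gene was called in the interaction with either scaling, a pseudocount of 0.1 TPM, a minimum of 5 TPM, a replicate block, or any 1 tumor left out other than DOX/IgG1 tumor 1 and DOX/anti-PD-1 tumor 3, where 1 gene was called. Salivary markers were highest in the DOX/IgG1 tumors, and their part in the histone values was not tested.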

How the results depend on the processing

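The only genes past both limits were in DOX/IgG1 versus IgG1 and in the interaction, and nothing is read from either. Leaving out tumors aside, 115 of the leading values and counts kept their value within the spread or within 1.5 times, and 19 did not. Of the named values of single classes and genes, 641 did so and 11 did not, all of the latter with a pseudocount of 0.1 TPM. In both counts a replicate block could not move a fold change or log2 ratio, as every group holds each replicate number. No setting could move a gene listed at 0 in all 12 tumors. Such entries were fixed in advance and are not read as stability. With 1 tumor left out, 86 of the leading values and counts kept their value in this sense and 34 did not. The cause of the changes was not tested. For sums this could show no change, because leaving out 1 of 3 tumors cannot move a log2 ratio past the spread used. The histone sum in DOX/anti-PD-1 versus anti-PD-1 changed sign within it, from −0.51 to 0.09 without DOX/anti-PD-1 tumor 3.

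Without the trend, limma called 13 genes in DOX/IgG1 versus IgG1, 3 in DOX/anti-PD-1 versus anti-PD-1, 1 in anti-PD-1 versus IgG1, 3 in DOX/anti-PD-1 versus DOX/IgG1, of which 1 histone gene, and 3 in the interaction. With all 12 tumors in 1 fit, 0 histone genes were called in DOX/IgG1 versus IgG1 and 2 genes in DOX/anti-PD-1 versus DOX/IgG1. Median-of-ratios scaling and scaling to equal sums each gave 3 genes and 1 histone gene in DOX/anti-PD-1 versus DOX/IgG1 and 0 genes in the interaction. That histone gene was Hist1h3a each time, listed at 0 in every DOX/IgG1 tumor, and nothing is read from its calls or from counts in DOX/IgG1 versus IgG1. In the interaction a pseudocount of 0.1 TPM and a minimum of 5 TPM each gave 0 genes, and no minimum gave 3.

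Replicate numbers did not pair tumors, as deviations of tumors with the same number correlated at −0.10 to 0.13 across genes. With a replicate block 2 genes were called in DOX/IgG1 versus IgG1 and 0 in the interaction.

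With 1 tumor left out, counts of genes called ran from 0 to 122, 0 to 4, 0 to 4, 0 to 4 and 0 to 1 in DOX/IgG1 versus IgG1, DOX/anti-PD-1 versus anti-PD-1, anti-PD-1 versus IgG1, DOX/anti-PD-1 versus DOX/IgG1 and the interaction. Histone genes called ran from 0 to 7, 0 to 3, 0 to 4, 0 to 1 and 0 to 1, and outside DOX/IgG1 versus IgG1 those called were at or near 0 in all tumors left in 1 group, so nothing is read from them. Medians of tested histone genes ran from −1.22 to −0.52, −0.95 to −0.07, −0.06 to 0.54 and 0.28 to 1.42, and log2 ratios of the histone sum from −1.41 to −0.73, −0.89 to 0.09, 0.00 to 0.51 and 0.38 to 1.36. With 3 tumors per group, unknown depth and copies that share reads, values of single histone genes are uncertain, above all for genes with few windows of their own. Class sums are less affected by how reads are split among copies, but they are not free of shared reads.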
